A study of Mus musculus with 9 samples.

Results

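The liver makes most of the proteins of plasma that clot blood, dissolve clots and mark cells for the complement system. The 47 genes described here were chosen by gene name, and no measured value entered the rule. Of these, 28 code for proteins of coagulation and fibrinolysis and 19 for proteins of complement, and the table holds 54532 genes in all. Their transcripts were measured by RNA-seq in 9 livers of male C57BL/6 mice, 5 to 7 weeks old by the study's methods. The NC group (n = 3) was control liver. The APAP group (n = 3) had received 500 mg/kg acetaminophen (APAP), an analgesic that injures hepatocytes at overdose, by intraperitoneal injection 6 h before collection. The AMSC group (n = 3) had received the same overdose and, directly after it, mesenchymal stem cells grown from inguinal fat of C57BL/6 mice (AMSCs) through the tail vein, and was also collected at 6 h. Mice were fasted overnight before APAP, and whether the NC mice were fasted was not separately stated. Livers given AMSCs without APAP were not analysed here.

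In coagulation, tissue factor on cells binds factor VII and activates factor X, which turns prothrombin into thrombin, and thrombin cuts fibrinogen into fibrin. Factors XII and XI, prekallikrein and kininogen form the contact system, another way into the same cascade, while antithrombin, protein C and thrombomodulin restrain thrombin and plasmin dissolves fibrin. In complement, the classical and lectin pathways cleave C4 and C2, all pathways meet at C3, and C5 to C9 form the membrane attack complex. Hepatocytes produce most of these proteins, whereas von Willebrand factor, factor VIII, thrombomodulin and the plasminogen activators come largely from endothelium, leukocytes and other cells.

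Values are FPKM (fragments per kilobase of gene, scaled for sequencing depth), so that levels of genes of different length can be set side by side. Each library held between 13418921 and 16210930 reads on genes. The defining hepatocyte markers were abundant in all libraries, with 7 of 7 above 0 and a summed level of 38032 to 41335 FPKM in NC, 54493 to 64098 FPKM in APAP and 47671 to 50673 FPKM in AMSC. Most of each sum was Alb, the gene of albumin (means of 28741, 44835 and 33180 FPKM). Apoa1 (5686, 9410 and 10044 FPKM) and Hnf4a (117, 164 and 239 FPKM) had their highest mean in AMSC, and the other markers had theirs in APAP. The transcripts of the 47 genes made up 2.27 ± 0.05% (SD, n = 3) of the summed FPKM in NC, 2.72 ± 0.22% in APAP and 3.15 ± 0.30% in AMSC. Their levels spanned more than 4 orders of magnitude, from Plat at 0.00960, 0.0185 and 0.102 FPKM in the NC libraries to C3 at 1255, 1175 and 843 FPKM. Testing was limited to genes whose 9 libraries averaged 1 FPKM or more, which 41 genes did. The other 6, F8, Vwf, Tfpi, Plau, Plat and Cfb, are described by their values alone.

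A gene was said to rise or fall at an adjusted p of at most 0.05 in limma on log2(FPKM + 1), with p-values adjusted over all 9699 genes tested. Fold changes are on this log2 scale, which understates changes of genes near 1 FPKM, unless a ratio of mean FPKM is named. In APAP against NC, 12 of the 41 genes rose and 0 fell, where 12.8% of all genes tested rose and 13.1% fell. Without adjustment, 20 were higher and 1 lower at p under 0.05, and voom, another limma method run on reads recovered from the FPKM, called 16 higher and 0 lower. Over all 9699 genes, voom called 1331 higher and 1285 lower. In AMSC against APAP, 0 rose and 4 fell, where 1.64% of all genes rose and 2.14% fell. Here 3 were higher and 17 lower without adjustment, and voom called 1 higher and 4 lower, beside 206 higher and 258 lower over all genes. The share of all genes at p under 0.05 without adjustment was not counted, so the unadjusted counts have no background. Plaur, among the 12 that rose and the 4 that fell, reached the minimum mean for testing only through the APAP libraries, where it was high. In AMSC against NC, 6 rose and 4 fell, where 14.1% of all genes rose and 11.9% fell. The median log2 fold change of the 41 genes was 0.34 in APAP against NC, -0.26 in AMSC against APAP and -0.02 in AMSC against NC, beside medians of -0.00, 0.01 and 0.02 over all genes tested. In AMSC against APAP, 36 of the 41 genes had a negative fold change, beside 4654 of the 9699 genes tested. Each pair of comparisons shares 3 libraries, so the values of these comparisons are not independent of each other.

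**Figure D1:**
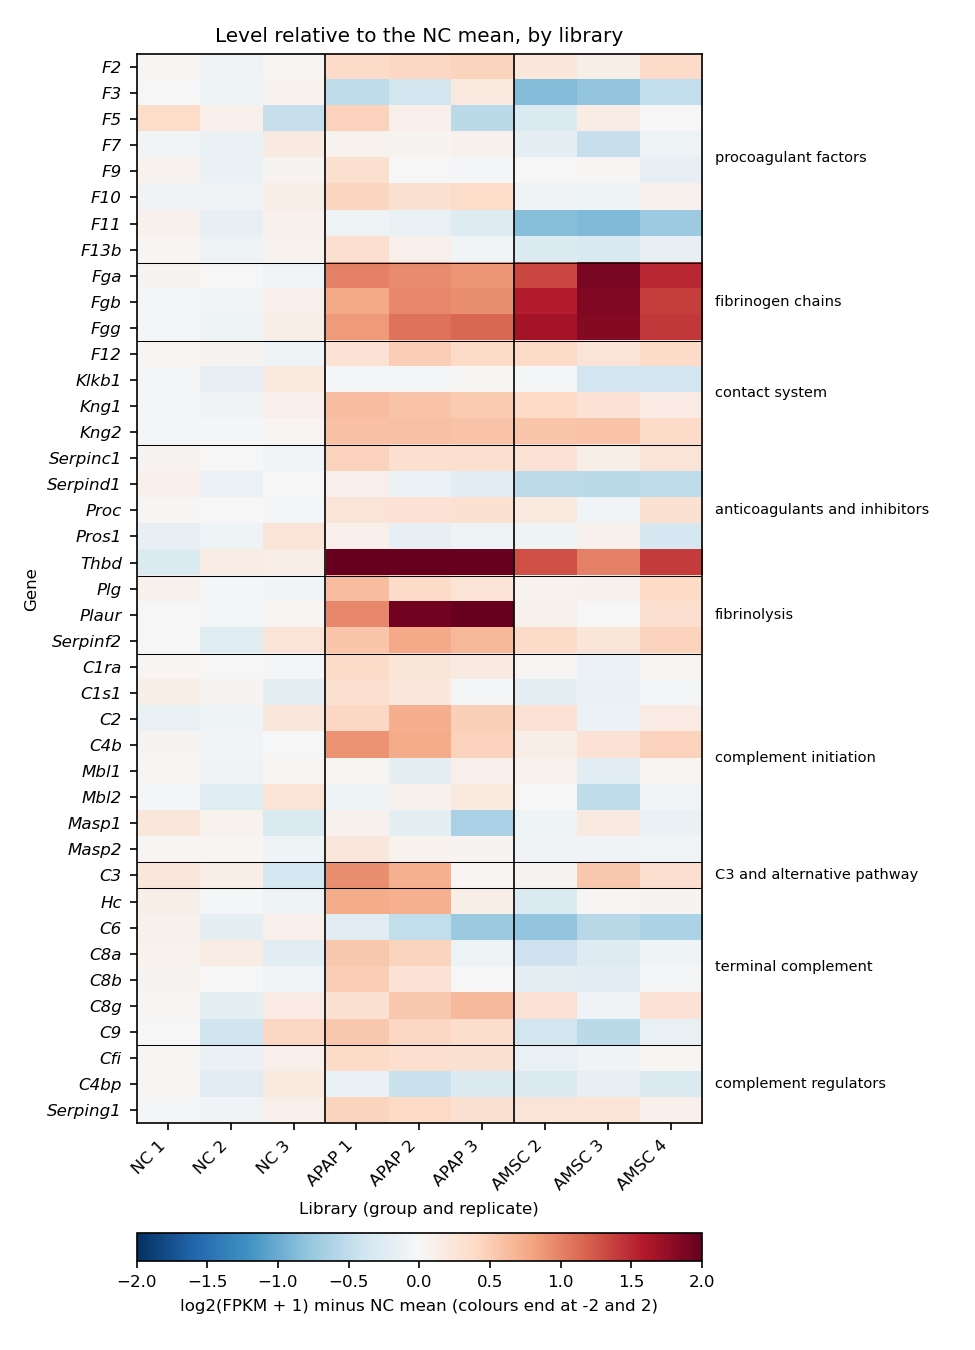
Level of the 41 tested genes (rows, by role) in each of the 9 libraries (columns), as log2(FPKM + 1) minus the mean of the 3 NC libraries, with red higher and blue lower. The rows of Fga, Fgb and Fgg are red in all APAP libraries and darker in all AMSC libraries, Thbd and Plaur are darkest in APAP, and F11, Serpind1 and C6 are blue in all AMSC libraries.

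The size of these shifts depended on how libraries were scaled. The deposited values are scaled so that the typical gene is equal between libraries, which leaves the summed FPKM higher in APAP (458808 to 495400) and AMSC (441409 to 468643) than in NC (366767 to 401861). Scaling all libraries to the same summed FPKM moved the median of all genes in APAP against NC to -0.26 and the median of the 41 genes to 0.03, so that the 41 genes stood 0.29 above the median gene, beside 0.35 as deposited. Scaled to equal reads on genes they stood 0.30 above it, and after quantile normalization 0.09. Under equal summed FPKM, 5 genes rose and 3 fell in APAP against NC, and 4 rose and 10 fell in AMSC against NC. Of all 9699 genes tested with that scaling, 750 rose and 2944 fell, and 848 rose and 2177 fell. The falls were thus near or below the background share. The rises of the fibrinogen chains, Thbd and Plaur were called under each of these 4 scalings, and those of F2, Kng1, Serpinf2 and C8g under the deposited scaling only. Plaur, however, reached the minimum mean for testing only through the APAP libraries, where it was high. Its rise was not called in limma where every gene above 0 was tested (adjusted p = 0.0569). Kng2 and C2 were called after quantile normalization as well, and C4b with equal reads on genes.

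**Figure D2:**
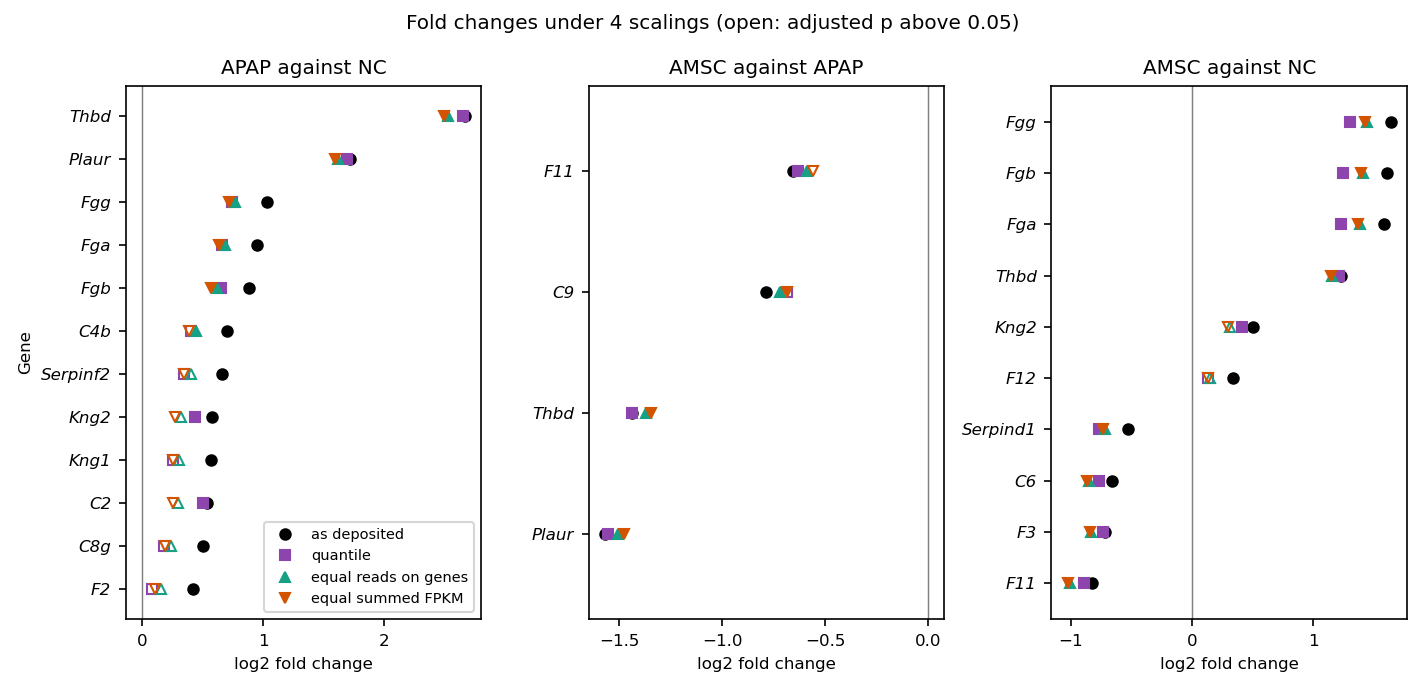
Log2 fold change (x axis) of every gene (y axis) that passed with the deposited scaling, for each of the 3 comparisons, under 4 scalings of the libraries. Filled symbols have an adjusted p of at most 0.05 in limma and open symbols do not. The fibrinogen chains, Thbd and Plaur are filled under all 4 scalings in APAP against NC, while F2 moves from 0.42 to between 0.08 and 0.16 and is open under the other scalings. Plaur reached the minimum mean for testing only through the APAP libraries.

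The 3 fibrinogen chains rose together and were the most abundant clotting transcripts. Fibrinogen is built from paired copies of 3 chains, Aα, Bβ and γ, and is known as an acute-phase protein. Its genes Fgg (ENSMUSG00000033860, chr3:83007724-83015049, plus strand), Fga (ENSMUSG00000028001, chr3:83026076-83033627, plus strand) and Fgb (ENSMUSG00000033831, chr3:83040141-83049863, minus strand; all GRCm38) are neighbours, with gaps of 11026 and 6513 bases between them. Fga, the Aα chain, measured 782, 746 and 724 FPKM in the NC libraries, 1503, 1452 and 1387 FPKM in APAP and 1902, 2786 and 2143 FPKM in AMSC. Fgb, the Bβ chain, measured 626, 615 and 685 FPKM in NC, 1082, 1253 and 1222 FPKM in APAP and 1899, 2336 and 1669.9 FPKM in AMSC. Fgg, the γ chain, measured 869, 843 and 982 FPKM in NC, 1623, 1908 and 1983 FPKM in APAP and 2854, 3196 and 2383 FPKM in AMSC. For each chain the 3 groups did not overlap, with every AMSC library above every APAP library and every APAP library above every NC library.

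In APAP against NC the log2 fold change was 0.95 ± 0.12 (SE), adjusted p = 0.00167 for Fga, 0.88 ± 0.13 (SE), adjusted p = 0.00288 for Fgb and 1.03 ± 0.14 (SE), adjusted p = 0.00226 for Fgg. In AMSC against NC it was 1.58 ± 0.16 (SE), adjusted p = 0.000363 for Fga, 1.60 ± 0.15 (SE), adjusted p = 0.000256 for Fgb and 1.64 ± 0.15 (SE), adjusted p = 0.00021 for Fgg, or 3.03, 3.07 and 3.13 times the NC mean in FPKM. These 6 calls held under every scaling, filter and left-out library that was tried. In AMSC against APAP the further difference was 0.72 ± 0.17 (SE), adjusted p = 0.0567 for Fgb, 0.64 ± 0.17 (SE), adjusted p = 0.0902 for Fga and 0.61 ± 0.17 (SE), adjusted p = 0.0927 for Fgg, none of which passed. All 3 passed when the 9 libraries were fitted together (adjusted p of 0.018 for Fgb, 0.0338 for Fga and 0.038 for Fgg), and Fgb (adjusted p = 0.0341) and Fgg (adjusted p = 0.047) also with equal summed FPKM.

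The proportions of the chains moved less than their level. The ratio of Fgb to Fgg was 0.716 ± 0.016 (SD, n = 3) in NC, 0.647 ± 0.027 in APAP and 0.699 ± 0.033 in AMSC, and that of Fga to Fgg was 0.840 ± 0.090, 0.796 ± 0.117 and 0.813 ± 0.127. Set against other liver genes, Fgg was 2.28 ± 0.14 times the level of F2 in NC, 3.48 ± 0.29 times in APAP and 6.12 ± 1.42 times in AMSC. The ratio of Fgg to Alb, the gene of albumin, was 0.0312 ± 0.0018 in NC, 0.0409 ± 0.0023 in APAP and 0.0850 ± 0.0137 in AMSC. These ratios do not depend on the scaling of a library, and the pairs in this report were chosen after the values were seen, so they are given without a test. The chains together took 25.9 ± 0.9% of the FPKM of the 47 genes in NC, 34.2 ± 3.0% in APAP and 49.6 ± 4.4% in AMSC. Without them, the other 44 genes held 1.68 ± 0.05%, 1.79 ± 0.23% and 1.58 ± 0.10% of the summed FPKM, ranges that overlapped between the groups.

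**Figure D3:**
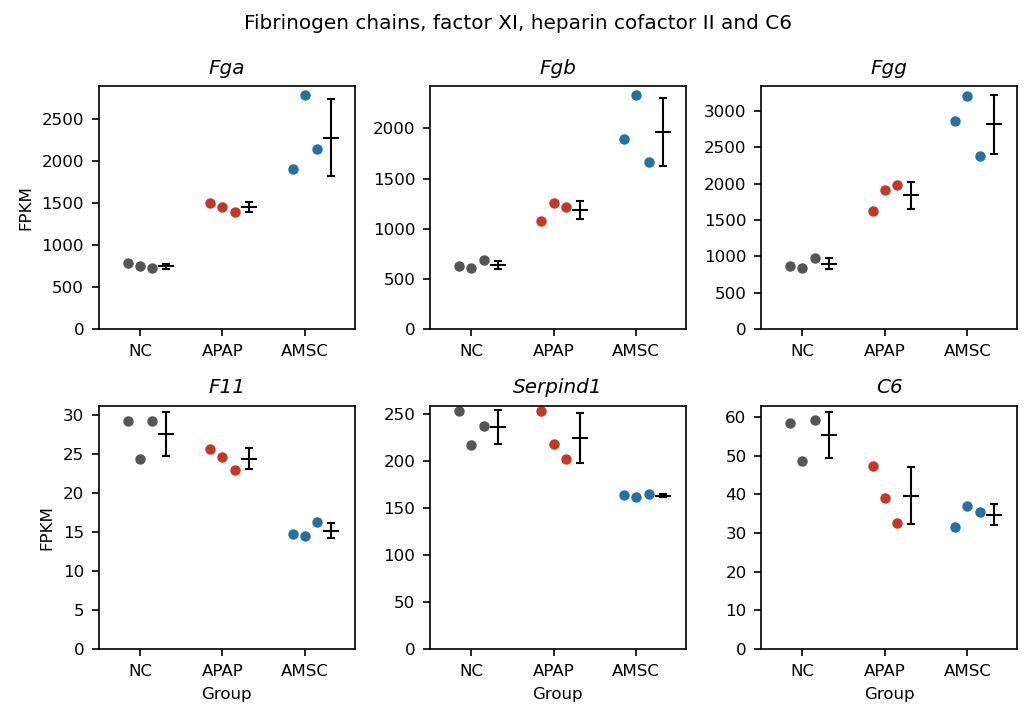
FPKM (y axis, from 0) of the fibrinogen chains Fga, Fgb and Fgg and of F11, Serpind1 and C6 in each library of the 3 groups (points), with the mean and SD beside them (dash and bars, n = 3). The fibrinogen chains step up from NC to APAP to AMSC with no overlap, whereas the AMSC points of F11 and Serpind1 lie below those of both other groups.

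The upstream sequences of the 3 fibrinogen genes are shown because the genes moved together, with letters that fit motifs of liver and acute-phase factors in capitals. They come from RefSeq on GRCm38.p6, end at the base before the start of the gene and run 5′ to 3′ along its strand. For Fga the last 77 of the 250 bases before the RefSeq start were left out, since the deposited coordinates place them in the gene.
Fgg, chr3:83007474-83007723, plus strand: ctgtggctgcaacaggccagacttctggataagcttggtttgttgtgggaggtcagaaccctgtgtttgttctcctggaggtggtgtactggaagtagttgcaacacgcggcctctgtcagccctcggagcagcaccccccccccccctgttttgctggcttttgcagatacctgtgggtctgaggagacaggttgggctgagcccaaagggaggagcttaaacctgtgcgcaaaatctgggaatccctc
Fga, chr3:83025903-83026075, plus strand: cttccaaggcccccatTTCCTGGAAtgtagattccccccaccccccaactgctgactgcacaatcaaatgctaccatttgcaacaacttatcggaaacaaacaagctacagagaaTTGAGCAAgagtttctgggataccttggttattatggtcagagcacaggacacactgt
Fgb, chr3:83049864-83050113, minus strand: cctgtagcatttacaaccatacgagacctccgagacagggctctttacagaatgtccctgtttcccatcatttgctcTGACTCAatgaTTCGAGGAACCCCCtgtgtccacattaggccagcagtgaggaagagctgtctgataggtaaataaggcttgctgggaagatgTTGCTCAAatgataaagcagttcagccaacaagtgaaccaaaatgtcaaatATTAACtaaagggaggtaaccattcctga
Capitals in Fga mark a STAT motif (TTCNNNGAA) and a C/EBP motif (TTGCNNAA, here on the other strand). Those in Fgb mark, from left to right, an AP-1 motif (TGANTCA), a STAT motif that overlaps an NF-kB motif (GGGNNTTCC), a C/EBP motif and the HNF1 half-site (GTTAAT). The HNF1 half-site was also found in the 77 bases of Fga that are not shown, and the counts below include it. The E-box CACGTG and the EGR motif GCGNGGGCG were searched too, all on both strands, and none of the 7 motifs was found in the Fgg window. Of 32851 mouse promoter windows of 250 bases, 7.02% held the STAT letters, 9.56% the C/EBP letters, 6.43% the HNF1 half-site, 6.75% the AP-1 letters and 4.98% the NF-kB letters. Windows were on hand for 34 of the 47 genes, and of their 37 windows 6 held the STAT letters, 10 the C/EBP letters, 8 the HNF1 half-site and 5 the AP-1 letters. A match shows only that the letters are there.

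Among the other procoagulant factors, F2 alone rose after APAP, and F11 and F3 were low in AMSC liver. F2, prothrombin, measured 402, 377 and 404 FPKM in NC, 516, 527 and 539 FPKM in APAP and 455, 429 and 515 FPKM in AMSC. The APAP libraries were above all others, and the log2 fold change against NC was 0.42 ± 0.11 (SE), adjusted p = 0.0316. This call was lost without NC 1, 2 or 3 or APAP 2 or 3 (adjusted p from 0.0611 to 0.119) and with quantile normalization (adjusted p = 0.597). F10, which with factor V converts prothrombin, measured 160.2 ± 13.8 (SD, n = 3) FPKM in NC, 207 ± 8.38 FPKM in APAP and 157 ± 11.5 FPKM in AMSC, without overlap between APAP and the other groups, and did not pass (adjusted p = 0.0604 against NC). F5, F7, F9 and F13b measured between 34.3 and 92.2 FPKM in all libraries, and none of the 4 passed in any comparison as deposited. F7 and F13b were called lower in AMSC than in NC after quantile normalization, with equal summed FPKM and with equal reads (lowest adjusted p of 0.0261 and 0.0108). F5, the cofactor of factor Xa, varied most within groups, with 65.0, 53.8 and 36.2 FPKM in NC and 69.5, 54.1 and 34.3 FPKM in APAP. F7 and F10 lie 1498 bases apart, and their ratio was 0.375 ± 0.013 in NC, 0.304 ± 0.011 in APAP and 0.320 ± 0.028 in AMSC.

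F11 (ENSMUSG00000031645, chr8:45241174-45262031, minus strand), factor XI, which activates factor IX, measured 29.2, 24.3 and 29.2 FPKM in NC, 25.6, 24.6 and 22.9 FPKM in APAP and 14.7, 14.4 and 16.2 FPKM in AMSC. All AMSC libraries were below all others, while NC and APAP overlapped. It fell in AMSC against NC (log2 fold change -0.82 ± 0.11 (SE), adjusted p = 0.0016) and in AMSC against APAP (-0.65 ± 0.12 (SE), adjusted p = 0.0292), and did not pass in APAP against NC (-0.17 ± 0.12 (SE), adjusted p = 0.357), except with equal summed FPKM (adjusted p = 0.0209) or equal reads on genes (adjusted p = 0.031). The fall against APAP was lost when any library but APAP 1 was left out (adjusted p from 0.0645 to 0.116), whereas that against NC held without any single library. Its neighbour Klkb1, prekallikrein, 4657 bases away, measured 33.1 ± 4.32 FPKM, 32.6 ± 0.809 FPKM and 27.4 ± 4.17 FPKM and passed in none as deposited. With equal summed FPKM or equal reads on genes, Klkb1 was called lower in AMSC than in NC (lowest adjusted p = 0.0221). Most of Klkb1 overlaps the gene model Gm45753 on the same strand (mean of 0.00717 FPKM), so reads that fit both could have gone uncounted. The ratio of F11 to Klkb1 was 0.835 ± 0.064 in NC, 0.748 ± 0.058 in APAP and 0.560 ± 0.096 in AMSC.

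F3, tissue factor, the starter of the extrinsic pathway, was a low transcript in liver. It measured 1.80, 1.62 and 1.91 FPKM in NC, 0.944, 1.15 and 2.18 FPKM in APAP and 0.523, 0.609 and 0.974 FPKM in AMSC, from 71 to 83, 32 to 74 and 20 to 37 reads. The AMSC libraries were all below the NC libraries, while the APAP libraries spread over both. F3 fell in AMSC against NC (log2 fold change -0.71 ± 0.13 (SE), adjusted p = 0.00614), a call that held under every alternative in which F3 was tested. It did not pass in AMSC against APAP (-0.49 ± 0.21 (SE), adjusted p = 0.233) or in APAP against NC (-0.23 ± 0.19 (SE), adjusted p = 0.419).

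In the contact system, both kininogen genes rose after APAP. Kng2, kininogen 2, measured 73.5, 73.5 and 76.1 FPKM in NC, 112, 112 and 111 FPKM in APAP and 109.8, 111 and 97.5 FPKM in AMSC. It rose in APAP against NC (log2 fold change 0.58 ± 0.11 (SE), adjusted p = 0.0078) and in AMSC against NC (0.50 ± 0.10 (SE), adjusted p = 0.00853). Kng1, kininogen 1, measured 469, 453 and 510.2 FPKM in NC, 733, 706 and 683 FPKM in APAP and 629.8, 580.4 and 533 FPKM in AMSC. In APAP against NC it rose (0.57 ± 0.12 (SE), adjusted p = 0.0124), a call lost without NC 1 (adjusted p = 0.0638) or NC 2 (adjusted p = 0.0559), and did not pass in AMSC against NC (0.28 ± 0.12 (SE), adjusted p = 0.115). The genes lie side by side on chromosome 16 and are similar in sequence, so that reads could have been split between them. With equal summed FPKM these rises did not pass (adjusted p in APAP of 0.0956 for Kng2 and 0.123 for Kng1, and in AMSC of 0.0588 for Kng2). F12, factor XII, which starts the contact pathway, measured 276, 277 and 251 FPKM in NC, 327, 379 and 348 FPKM in APAP and 348, 322 and 348 FPKM in AMSC, with no overlap between NC and the rest. In APAP against NC its adjusted p was 0.053, with 0.0477 in the fit with a replicate block, which compares livers of the same number (NC 3 has this number in its description, and 1 in its title), and 0.0402 without APAP 1. In AMSC against NC it rose (0.34 ± 0.10 (SE), adjusted p = 0.0456), and the call was lost without any 1 of the 6 libraries (adjusted p from 0.0524 to 0.126).

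Of the 4 anticoagulant genes of hepatocytes, Serpind1 fell in AMSC against NC and the others passed in no comparison. Serpinc1, antithrombin, the main plasma inhibitor of thrombin, measured 223, 217 and 206 FPKM in NC, 296, 271 and 268 FPKM in APAP and 264, 233 and 258 FPKM in AMSC. Its log2 fold change in APAP against NC was 0.37 ± 0.12 (SE), with an adjusted p of 0.0541, and 0.0434 with the replicate block. Serpind1, heparin cofactor II, another thrombin inhibitor, measured 253, 217 and 236 FPKM in NC, 253, 217 and 202 FPKM in APAP and 163, 162 and 164 FPKM in AMSC. The AMSC libraries lay close together and below all others. Serpind1 fell in AMSC against NC (-0.53 ± 0.10 (SE), adjusted p = 0.00837) and did not pass in AMSC against APAP (-0.45 ± 0.13 (SE), adjusted p = 0.11). The ratio of Serpind1 to Serpinc1 was 1.09 ± 0.08 in NC, 0.804 ± 0.051 in APAP and 0.650 ± 0.040 in AMSC, without overlap between the groups. Proc, protein C, measured 342 ± 5.32 FPKM, 417 ± 7.27 FPKM and 382 ± 47.4 FPKM, and its cofactor Pros1, protein S, 14.3 ± 2.49 FPKM, 13.7 ± 1.5 FPKM and 13.2 ± 2.03 FPKM. Their groups overlapped except that the APAP libraries of Proc were above those of NC (adjusted p = 0.0974).

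Thrombomodulin and the urokinase receptor, a pair of cell-surface proteins, rose most after APAP and were lower with AMSCs. Thbd (ENSMUSG00000074743, chr2:148404466-148408188, minus strand), thrombomodulin, turns thrombin into an activator of protein C. It measured 0.209, 0.621 and 0.609 FPKM in NC, 10.6, 7.20 and 7.51 FPKM in APAP and 2.59, 1.94 and 2.86 FPKM in AMSC, on 13 to 40, 332 to 529 and 94 to 160 reads. The 3 groups did not overlap, with AMSC between NC and APAP. The APAP mean was 17.6 times the NC mean in FPKM, and the log2 fold change was 2.67 ± 0.18 (SE), adjusted p = 0.000132. Thbd fell in AMSC against APAP (-1.44 ± 0.18 (SE), adjusted p = 0.00812), a call lost only where every gene above 0 was tested (adjusted p = 0.0922), and was above NC (1.23 ± 0.16 (SE), adjusted p = 0.00138).

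Plaur (ENSMUSG00000046223, chr7:24462484-24475968, plus strand), the receptor that holds urokinase at the cell surface, measured 0.137, 0.110 and 0.178 FPKM in NC, 1.22, 3.33 and 4.44 FPKM in APAP and 0.217, 0.147 and 0.432 FPKM in AMSC, on 5 to 8, 43 to 156 and 5 to 17 reads. The APAP libraries were above all others and spread widely, while AMSC and NC overlapped. It rose in APAP against NC (log2 fold change 1.71 ± 0.30 (SE), adjusted p = 0.00631) and fell in AMSC against APAP (-1.57 ± 0.31 (SE), adjusted p = 0.0373). With NC and AMSC below 1 FPKM, Plaur reached the minimum mean for testing only through the APAP libraries, the group where it was high, so its calls are no independent support for a difference. The fall was lost when any library but APAP 1 was left out (adjusted p from 0.0767 to 0.133), and with every gene above 0 tested the rise had an adjusted p of 0.0569 and the fall 0.192. In AMSC against NC the difference was 0.14 ± 0.13 (SE), adjusted p = 0.45, with a 95% interval of -0.15 to 0.44. The 250 bases upstream of Plaur in RefSeq (chr7:24462233-24462482, plus strand, GRCm38.p6) are shown as those of the gene with the largest ratio of APAP to NC means (21.1), with capitals for an EGR motif, an AP-1 motif and a C/EBP motif, from left to right.
Plaur: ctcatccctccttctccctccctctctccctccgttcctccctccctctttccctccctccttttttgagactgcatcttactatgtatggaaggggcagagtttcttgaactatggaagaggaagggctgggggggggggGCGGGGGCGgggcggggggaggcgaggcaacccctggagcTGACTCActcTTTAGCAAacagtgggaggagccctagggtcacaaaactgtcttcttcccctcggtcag
The EGR letters were in 4.70% of all promoter windows and, among those of the 34 genes, in that of Plaur alone.

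**Figure D4:**
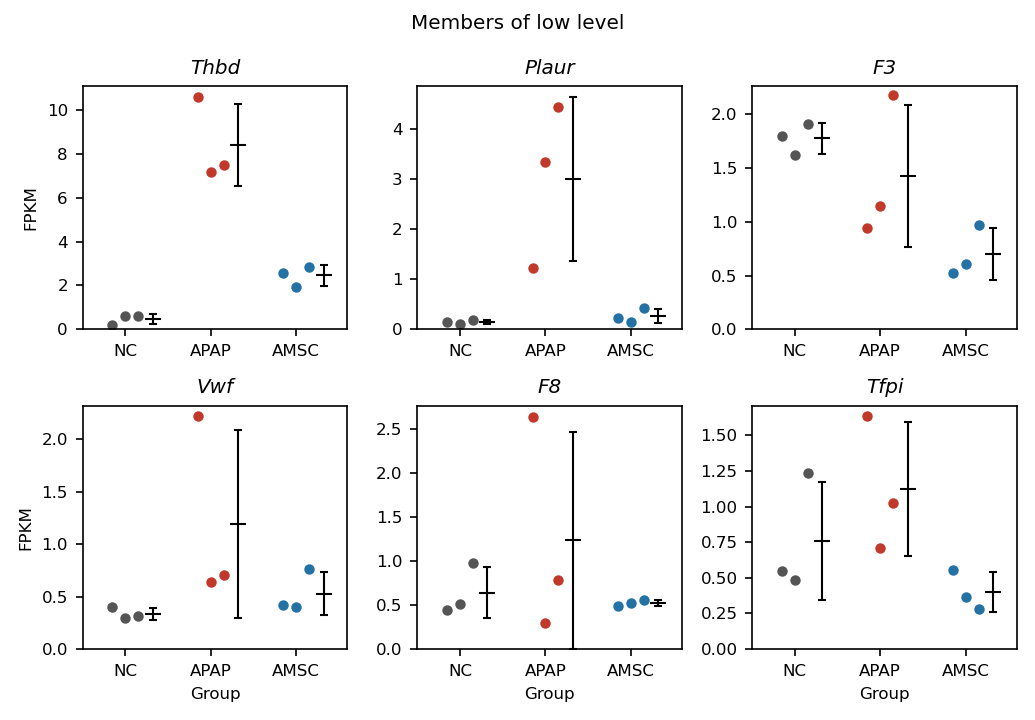
FPKM (y axis, from 0) of Thbd, Plaur, F3, Vwf, F8 and Tfpi in each library of the 3 groups (points), with the mean and SD beside them (dash and bars, n = 3). The APAP points of Thbd and Plaur lie above all others, and APAP 1, the leftmost red point, is far above the other libraries for Vwf and F8.

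Thbd and Plaur are not hepatocyte genes in the main, and summed markers of some other cells, but not of all, differed between the same groups. In bulk liver, fewer cells of a type and less RNA per cell cannot be told apart. Platelet markers, 6 of 7 above 0 with Gp1bb at 0 in all libraries, summed to 0.794 to 1.56 FPKM in NC, 18.5 to 22.5 FPKM in APAP and 2.31 to 2.73 FPKM in AMSC. Pf4 and Ppbp were the largest parts of the APAP sum. Gp1ba did not follow the sum, with means of 0.179 FPKM in NC, 0.178 FPKM in APAP and 0.118 FPKM in AMSC. Neutrophil markers (6 of 6 above 0 in some library) summed to 0.330 to 1.84 FPKM, 7.58 to 35.0 FPKM and 4.38 to 6.01 FPKM, and Kupffer cell markers (7 of 7) to 51.7 to 106 FPKM, 72.6 to 190.0 FPKM and 43.2 to 69.9 FPKM. Of the neutrophil markers, Ly6g was above 0 only in APAP 2 and AMSC 4, and S100a9, Retnlg and Mmp8 were 0 in NC 1 and NC 2. Markers of sinusoidal endothelium (8 of 8) summed to 22.7 to 48.6 FPKM, 27.7 to 73.0 FPKM and 25.3 to 26.2 FPKM, erythrocyte markers (5 of 5) to 135 to 254 FPKM, 306 to 1406 FPKM and 183 to 312 FPKM, and stromal markers (8 of 8) to 19.1 to 36.4 FPKM, 25.6 to 55.6 FPKM and 23.8 to 42.9 FPKM. The endothelial markers did not move alike. Pecam1 (means of 1.67, 4.10 and 1.90 FPKM) and Cdh5 (2.85, 5.85 and 2.45 FPKM) had every APAP library above every NC and AMSC library. The remaining endothelial markers overlapped between APAP and NC or AMSC, such as Kdr (3.07, 3.01 and 1.68 FPKM). Dcn was the largest part of the stromal sum (means of 17.1, 30.6 and 23.9 FPKM). Lrat went the other way (2.25, 1.16 and 0.943 FPKM) and fell in AMSC against NC (adjusted p = 0.00812 in limma). Of the erythrocyte markers, Alas2 (33.1, 43.0 and 22.9 FPKM) fell in AMSC against NC (adjusted p = 0.0153), while the AMSC mean of each globin gene was above its NC mean. The groups did not overlap in the platelet and neutrophil sums. NC and APAP overlapped in the Kupffer cell, endothelial and stromal sums, and APAP and AMSC in the erythrocyte and stromal sums. The part of these cells in the results on Thbd and Plaur was not tested.

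A further 5 genes expressed largely outside hepatocytes were too low to test. Vwf, von Willebrand factor, which carries factor VIII and tethers platelets, measured 0.403, 0.299 and 0.311 FPKM in NC, 2.22, 0.643 and 0.704 FPKM in APAP and 0.419, 0.402 and 0.766 FPKM in AMSC. F8, factor VIII, measured 0.448, 0.508 and 0.974 FPKM in NC, 2.63, 0.293 and 0.789 FPKM in APAP and 0.489, 0.528 and 0.558 FPKM in AMSC, and overlaps Fundc2 on the other strand, whose mean was higher at 2.5 FPKM. Tfpi, the inhibitor of tissue factor with factor VIIa, measured 0.549, 0.487 and 1.23 FPKM in NC, 1.64, 0.709 and 1.02 FPKM in APAP and 0.553, 0.366 and 0.280 FPKM in AMSC. APAP 1 was the highest library for all 3, and also for the summed endothelial markers (73.0 FPKM) and neutrophil markers (35.0 FPKM). Plat, tissue plasminogen activator, measured 0.00960, 0.0185 and 0.102 FPKM in NC, 0.179, 0.310 and 0.441 FPKM in APAP and 0.101, 0.0123 and 0.107 FPKM in AMSC, on at most 37 reads, with the APAP libraries above all others. Plau, urokinase, was below 0.6 FPKM in all libraries and overlapped between all groups.

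Of the fibrinolytic genes of hepatocytes, Serpinf2 rose after APAP and Plg did not pass. Serpinf2, α2-antiplasmin, which blocks plasmin, measured 250.3, 214 and 300.5 FPKM in NC, 372, 428 and 401 FPKM in APAP and 328, 299 and 347 FPKM in AMSC. It rose in APAP against NC (log2 fold change 0.66 ± 0.16 (SE), adjusted p = 0.0188), a call lost without NC 1, NC 2 or APAP 2 (adjusted p from 0.0685 to 0.0717). Plg, plasminogen, measured 464, 422 and 420.4 FPKM in NC, 672, 570.5 and 524 FPKM in APAP and 459, 464 and 575 FPKM in AMSC. Its log2 fold change in APAP against NC was 0.43 ± 0.14 (SE) and its adjusted p was 0.0568, against 0.0373 in the fit with the replicate block and 0.0476 without APAP 3. Neither gene passed in a comparison of AMSC, although without NC 3 Serpinf2 was higher in AMSC than in NC (adjusted p = 0.0375).

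Most complement genes passed in no comparison. Of the 18 tested, 3 rose and 0 fell in APAP against NC, 0 rose and 1 fell in AMSC against APAP, and 0 rose and 1 fell in AMSC against NC. Of all genes tested, 12.8% rose and 13.1% fell in APAP against NC, 1.64% and 2.14% in AMSC against APAP, and 14.1% and 11.9% in AMSC against NC, so the rises of complement genes after APAP were near the background share. Without adjustment these counts were 6 and 1, 0 and 8, and 1 and 1, and voom called 4 and 0, 0 and 1, and 0 and 1. Of the 23 coagulation and fibrinolysis genes tested, 9 rose and 0 fell, 0 rose and 3 fell, and 6 rose and 3 fell. Without adjustment these were 14 and 0, 3 and 9, and 8 and 4, and by voom 12 and 0, 1 and 3, and 6 and 3. Over all 9699 genes, voom called 1331 and 1285, 206 and 258, and 1466 and 1239. The unadjusted counts have no share of all genes to be set against. The median log2 fold change of the complement genes was 0.28 in APAP against NC, -0.28 in AMSC against APAP and -0.06 in AMSC against NC, beside 0.37, -0.24 and 0.15 for coagulation and fibrinolysis. The difference between the lists was not tested.

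In the initiating pathways, the genes of both proteins of the classical C3 convertase rose after APAP. C4b, complement C4, measured 176, 164 and 169 FPKM in NC, 318, 283 and 233 FPKM in APAP and 186, 208 and 234 FPKM in AMSC. It rose in APAP against NC (log2 fold change 0.70 ± 0.15 (SE), adjusted p = 0.0118), with an adjusted p of 0.0514 without NC 2, and is close in sequence to C4a, which could share its reads. C2, the protease of the convertase, measured 7.93, 8.26 and 10.5 FPKM in NC, 12.1, 15.3 and 12.7 FPKM in APAP and 11, 8.03 and 9.97 FPKM in AMSC. The rise in APAP against NC (0.54 ± 0.15 (SE), adjusted p = 0.0324) was lost without NC 1, NC 2, APAP 2 or APAP 3 (adjusted p from 0.0579 to 0.128). Part of C2 overlaps the gene model Gm20547 on the same strand, so reads that fit both could have gone uncounted. C1ra and C1s1, proteases of the C1 complex, measured 78.8 ± 2.29 FPKM and 90.1 ± 9.53 FPKM in NC, 95.0 ± 7.25 FPKM and 101 ± 12.9 FPKM in APAP, and 77.7 ± 4.59 FPKM and 82.8 ± 5.0 FPKM in AMSC. The lectin pathway genes Mbl1, Mbl2, Masp1 and Masp2, which code for mannose-binding lectins and their proteases, had log2 fold changes from -0.26 to 0.25 in the 3 comparisons and passed in none.

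C3, on which all pathways converge, was the most abundant complement transcript and varied between livers. It measured 1255, 1175 and 843 FPKM in NC, 2055, 1765 and 1104 FPKM in APAP and 1121, 1568 and 1362 FPKM in AMSC, with overlap between all groups. In APAP against NC the log2 fold change was 0.56 ± 0.26 (SE), adjusted p = 0.151, and with the replicate block the adjusted p was 0.0253. It was also called without APAP 3 (adjusted p = 0.035). Part of the spread between libraries went with gene length. Tested genes longer than 2981 bases, C3 and F5 among them, had a median deviation from the group mean of 0.159 in APAP 1 and -0.0965 in APAP 3, in log2(FPKM + 1). For the shorter genes it was 0.0396 and -0.00154. In NC 1 and NC 3 it was 0.0524 and -0.0274 for the longer genes and 0.0218 and 0.0689 for the shorter. What this adds to the spread of C3 was not tested. Cfb, factor B of the alternative pathway, was near 1 FPKM with 0.933, 1.23 and 0.699 FPKM in NC, 1.48, 1.40 and 0.50 FPKM in APAP and 0.446, 0.599 and 1.08 FPKM in AMSC, and all groups overlapped. Nearly all of Cfb lies within Gm20547, a gene model on the same strand with a mean of 0.0046 FPKM. Reads that fit both could have gone uncounted, so the level of Cfb may be too low. This was not tested.

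Of 6 genes of the membrane attack complex measured, C8g rose in APAP against NC, C9 fell in AMSC against APAP and C6 fell in AMSC against NC. C9, whose copies line the pore, measured 241, 184 and 323 FPKM in NC, 352, 324 and 312 FPKM in APAP and 187, 168 and 219.9 FPKM in AMSC. The AMSC libraries were all below the APAP libraries, and NC overlapped both. C9 fell in AMSC against APAP (log2 fold change -0.79 ± 0.14 (SE), adjusted p = 0.0334), but the call was lost without any 1 of the 6 libraries (adjusted p from 0.0503 without APAP 1 to 0.119 without AMSC 3). Without NC 3 it was higher in APAP than in NC (adjusted p = 0.0397). C6, an early part of the complex, measured 58.5, 48.5 and 59.2 FPKM in NC, 47.3, 39.1 and 32.5 FPKM in APAP and 31.7, 37.1 and 35.4 FPKM in AMSC. All NC libraries were above all APAP and AMSC libraries. C6 fell in AMSC against NC (-0.66 ± 0.12 (SE), adjusted p = 0.00573), and in APAP against NC its difference was -0.48 ± 0.17 (SE), adjusted p = 0.0679, with an adjusted p of 0.0231 without APAP 1.

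C8g, the γ chain of C8, measured 226, 189.9 and 244 FPKM in NC, 270.5, 319 and 344 FPKM in APAP and 267, 209 and 268 FPKM in AMSC. The rise in APAP against NC (0.50 ± 0.15 (SE), adjusted p = 0.047) was lost without any library but APAP 1 (adjusted p from 0.0539 to 0.163), and the gene overlaps Fbxw5 on the other strand (13.6 FPKM). C8a and C8b, the other chains of C8, lie next to each other on chromosome 4 and measured 143 ± 19.2 FPKM and 147 ± 5.32 FPKM in NC, 178 ± 39.6 FPKM and 179 ± 30.2 FPKM in APAP, and 119.6 ± 13.7 FPKM and 133 ± 10.4 FPKM in AMSC. Neither passed in any comparison as deposited. In AMSC against NC, C8b was called lower under each of the other scalings (lowest adjusted p = 0.0449) and C8a with equal reads (adjusted p = 0.0489). Hc, complement C5, measured 101, 91.3 and 86.7 FPKM in NC, 155, 152 and 102 FPKM in APAP and 75.4, 94.1 and 96.7 FPKM in AMSC. The APAP libraries were above all others, with a log2 fold change of 0.53 ± 0.18 (SE) against NC, an adjusted p of 0.0717, and 0.0373 with the replicate block. Without APAP 3 the adjusted p was 0.013.

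None of the 3 complement regulators passed. Cfi, factor I, which cleaves C3b and C4b, measured 255 ± 20.8 FPKM in NC, 323 ± 8.79 FPKM in APAP and 245 ± 15.6 FPKM in AMSC, with the APAP libraries above all others (adjusted p = 0.0754 against NC). Serping1, the C1 inhibitor that also blocks kallikrein and factor XIIa, measured 274 ± 18.5 FPKM, 358 ± 16.5 FPKM and 317 ± 20.6 FPKM (adjusted p = 0.0514 in APAP against NC). Serping1 was called higher in APAP than in NC with 0.1 rather than 1 added to the FPKM, without the trend, by voom and with all 9 libraries fitted together (adjusted p from 0.0257 to 0.0495). Cfi was called higher in the last of these (adjusted p = 0.0407). C4bp, C4b-binding protein, measured 63.1 ± 9.29 FPKM, 51.4 ± 5.60 FPKM and 52.9 ± 2.79 FPKM, and its groups overlapped, with lower values called in APAP against NC with equal summed FPKM (adjusted p = 0.0177) or equal reads (adjusted p = 0.0296).

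Genes of the same pathways outside the 47 were taken from lists of gene names. Of 38 further coagulation and fibrinolysis genes, 28 were tested, and 8 rose and 2 fell in APAP against NC, 1 rose and 2 fell in AMSC against APAP, and 5 rose and 4 fell in AMSC against NC. Beside the shares of all genes (12.8% and 13.1%, 1.64% and 2.14%, 14.1% and 11.9%), the falls in APAP and both counts in AMSC against NC were near or below the background. Thbs1, thrombospondin 1, a protein of platelet granules and other cells, measured 0.0395, 0.143 and 0.0670 FPKM in NC, 6.11, 9.33 and 11.8 FPKM in APAP and 0.311, 0.393 and 0.614 FPKM in AMSC, and rose in APAP (3.18 ± 0.21 (SE), adjusted p = 0.000118) and fell in AMSC against APAP (-2.77 ± 0.22 (SE), adjusted p = 0.00185). Thbs1 too reached the minimum mean of 1 FPKM only through the APAP libraries. Mug2, a murinoglobulin that traps proteases, measured 107, 85.6 and 63.9 FPKM, 193, 183 and 137 FPKM and 83.1, 87.6 and 106 FPKM, rose in APAP (1.01 ± 0.22 (SE), adjusted p = 0.0134, with an adjusted p of 0.0507 without APAP 2) and fell in AMSC against APAP (-0.87 ± 0.17 (SE), adjusted p = 0.0388, lost without any library but APAP 3, adjusted p from 0.0645 to 0.14).

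Fgl1, fibrinogen-like 1, was the only further gene to rise in AMSC against APAP. It measured 40.1, 37.0 and 54.0 FPKM in NC, 44.0, 43.1 and 39.5 FPKM in APAP and 76.9, 90.7 and 60.3 FPKM in AMSC (0.82 ± 0.17 (SE), adjusted p = 0.0418), and the call was lost without any library but AMSC 4 (adjusted p from 0.0585 to 0.131). It also rose in AMSC against NC (0.78 ± 0.19 (SE), adjusted p = 0.018), a call lost without NC 1, NC 2 or AMSC 2 (adjusted p from 0.0556 to 0.064). Itih3 and Itih4, inter-alpha-trypsin inhibitor heavy chains, rose in AMSC against NC by 0.94 ± 0.15 (SE), adjusted p = 0.00296 and 0.80 ± 0.16 (SE), adjusted p = 0.00807. Both rose in APAP against NC too, Itih3 by 0.74 ± 0.16 (SE), adjusted p = 0.0126 and Itih4 by 0.61 ± 0.14 (SE), adjusted p = 0.0195. The call of Itih3 was lost without NC 2 (adjusted p = 0.0543), after quantile normalization (adjusted p = 0.0846) and with equal summed FPKM (adjusted p = 0.0614). That of Itih4 was lost without NC 1, NC 2 or APAP 2 (adjusted p from 0.0647 to 0.0752) and under each of the other 3 scalings (adjusted p from 0.0913 to 0.204). Lman1 and Mcfd2 together form the receptor that carries factors V and VIII out of the endoplasmic reticulum, and both fell in APAP against NC. Lman1 measured 54.0, 54.5 and 40.1 FPKM in NC, 32.6, 22.7 and 25.7 FPKM in APAP and 20.1, 25.1 and 24 FPKM in AMSC (-0.85 ± 0.18 (SE), adjusted p = 0.0127 in APAP and -1.06 ± 0.15 (SE), adjusted p = 0.00187 in AMSC against NC), and Mcfd2 97.4, 94.9 and 98.9 FPKM, 59.8, 56.5 and 61.1 FPKM and 65.7, 74.8 and 68.8 FPKM (-0.71 ± 0.11 (SE), adjusted p = 0.00379 in APAP against NC). The call of Lman1 in APAP was lost without NC 1 (adjusted p = 0.0545) or NC 2 (adjusted p = 0.0556). Ggcx, the vitamin K-dependent carboxylase that modifies prothrombin and factors VII, IX and X, measured 16.2, 15.9 and 12.8 FPKM, 14.2, 7.91 and 9.06 FPKM and 6.46, 7.92 and 8.29 FPKM and fell in AMSC against NC (-0.90 ± 0.13 (SE), adjusted p = 0.00236). F2r, the thrombin receptor PAR1, also fell in AMSC against NC (-0.63 ± 0.16 (SE), adjusted p = 0.0215), with adjusted p of 0.0577 without AMSC 3 and 0.0699 without AMSC 4. Of 28 further complement genes in the table, 19 were tested, and 1 rose and 0 fell in APAP against NC, 0 rose and 0 fell in AMSC against APAP, and 2 rose and 2 fell in AMSC against NC, each at or below the share of all genes given above. Without adjustment these were 9 and 0, 1 and 11, and 2 and 4, and by voom 2 and 0, 0 and 0, and 2 and 2. The unadjusted share of all genes was not counted. By voom, 1331 and 1285, 206 and 258, and 1466 and 1239 of all 9699 genes were called.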

How the data were processed

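The authors deposited FPKM per gene for 54532 genes in 9 libraries, with a gene length and coordinates on GRCm38 (build per the submitters' processing notes). Aligner, counter and strandedness were not given in the sources used here. FPKM times length gave whole reads (within 0.1) for over 99.99% of values, and the depth terms of the FPKM equalled, up to a constant, size factors taken as medians of ratios of these reads (relative spread 3.89e-08), lying between 0.899 and 1.15 times the reads on genes. Of the 47 genes, 45 had the same coordinates in GENCODE vM21.

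Groups came from the labels. Genes averaging 1 FPKM or more were tested as log2(FPKM + 1) with limma 3.58.1 (lmFit, eBayes with trend) in R 4.3.3, 2 groups per fit, with Benjamini-Hochberg adjustment over 9699 genes. Voom ran on the recovered reads. Nothing states that livers of a group were handled separately beyond their labels, and p-values measure the spread between them. APAP and NC livers of the same number deviated together (r = 0.213, 0.160 and 0.378 for numbers 1, 2 and 3), so a fit with that block is given beside the calls it changes in this comparison. NC 3 takes its number from its description, while its title carries the number 1 and another date than the other libraries, so its pairing with APAP 3 is uncertain, and with it the calls made only with the block. All 47 genes are named, and of the pathway genes that passed, the 3 with the largest change per comparison and direction, the others being counted only. Further, 1 gene is not reported here or counted in the pathway lists. The genes, the lists and the added scalings were chosen with earlier results of these data known. The code was checked on simulated data. Figures used Python 3.11.15 and matplotlib 3.10.9.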

Additional observations from a re-analysis of the deposited data

How the results depend on the processing

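In APAP against NC, 12 genes rose as deposited, 19 when all 9 libraries were fitted together, 7 after quantile normalization, 5 with equal summed FPKM, 6 with equal reads on genes and 6 to 13 without 1 library (7 without NC 1, 6 without NC 2, 8 without APAP 2). The 0 that fell became 1, 1, 3 and 3 under the same 4 settings, and 0 to 1 without 1 library (C6 without APAP 1). Of all 9699 genes tested, 1243 rose and 1271 fell as deposited. In these 4 settings 1464, 1093, 750 and 821 rose, and 1504, 1469, 2944 and 2646 fell. Without 1 library, 718 to 1424 rose and 635 to 1325 fell. The median log2 fold change of the 41 genes, 0.343, became 0.0377, 0.0319 and 0.0837 under quantile normalization, equal summed FPKM and equal reads. In AMSC against APAP, the 4 that fell became 0 with all genes above 0 tested, 2 at a mean of at least 5 FPKM, and 1 to 3 without 1 library (Thbd alone without APAP 2, APAP 3 or any AMSC library). The 0 that rose became 3 with all libraries fitted together, 1 without the trend, 1 with voom, 2 with equal summed FPKM and 1 with equal reads, where the medians were -0.162 and -0.196. Over all genes, 208 of 9699 fell as deposited, 30 of 24849 above 0 and 85 of 4935 at 5 FPKM. Without 1 library 56 to 235 fell. Over all genes 159 rose as deposited, and 303, 163, 206, 248 and 239 in the settings just named. In AMSC against NC, the 4 that fell became 8 after quantile normalization and 10 with equal summed FPKM or equal reads, with medians of -0.138, -0.236 and -0.218. That median, -0.0247 as deposited, lay from -0.0196 to 0.0171 without 1 library, above 0 without AMSC 2 or AMSC 3. Of all 9699 genes, 1154 fell as deposited, 1415 after quantile normalization, 2177 with equal summed FPKM and 2175 with equal reads.

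With the replicate block, 17 rose in APAP against NC, 2 fell in AMSC against APAP (Thbd and Plaur, while F11 and C9 were lost), and in AMSC against NC 4 rose (Kng2, adjusted p = 0.226, and F12, adjusted p = 0.526, were lost) and 1 fell (F3, while F11, Serpind1 and C6 were lost, adjusted p from 0.0515 to 0.324). Of all 9699 genes, 1545 rose in APAP against NC and 242 fell in AMSC against APAP with the block. In AMSC against NC 544 rose and 303 fell. In AMSC against APAP and AMSC against NC, same-numbered livers did not deviate together (r of -0.104 and -0.293, and -0.199 and -0.309). So few values do not settle whether livers of the same number were handled together. The cause of the changes between settings was not tested, except that equal summed FPKM and equal reads lower all APAP and AMSC values against NC by construction. The 40 fold changes of named genes called as deposited were each set against every alternative in which the gene was tested. Of these pairs of a fold change and a setting, 514 kept direction and call, and 118 kept direction and lost the call. Fold changes not called as deposited are not counted there. Some of these changed direction, such as F5 in APAP against NC under 6 of 16 alternatives. The equal scalings were chosen after seeing the data. With 3 livers per group, and under 20 reads for Plaur in NC and AMSC, small changes could not be told from spread.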
